A study of Homo sapiens with 18 samples.

Results

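The integrin and laminin subunit genes were followed across 18 RNA sequencing libraries from 3 human glioblastoma lines, LN229, T98G and U118-MG, all of them long-established cultures. These genes were chosen as a subject with earlier results of these data known, so shares set against all genes only describe them. Within that subject members were taken by symbol alone, as every gene of the deposited table named as an integrin or laminin subunit. This gave 38 of 46218 genes, made up of 18 integrin alpha subunits, 8 integrin beta subunits, 5 laminin alpha, 4 laminin beta and 3 laminin gamma chains. Each line carried either sgCon, a control CRISPR guide, or sgDDA1, a guide against DDA1, a subunit of the CRL4 ubiquitin ligases. By its title, the series is about DDA1 downstream of mTORC1, and its part in repairing DNA and in tumour growth. Each of the 6 groups held 3 libraries, made from Trizol-extracted total RNA of cells kept in DMEM with 10% fetal bovine serum. The labels name no poly(A) selection step. The labels do not say whether a guide group was a clone or a pool, how long the guide had acted, or whether its libraries were grown apart. P-values here reflect library-to-library spread only, possibly technical in origin.

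Integrins are cell surface receptors that join an alpha to a beta subunit, bind matrix proteins outside the cell and couple them to actin through talin and kindlin. The pairing sets the ligand, so that some integrins bind collagens, some bind laminins, some bind fibronectin and other RGD proteins, and some are restricted to leukocytes. Laminins are the core proteins of basement membranes, assembled inside the cell from an alpha, a beta and a gamma chain. Glioma cells are known to migrate along vascular basement membranes and to use integrins to do so.

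Library totals were 44.9 to 55.1 M counts, and 94.1 M in LN229 sgCon 1. Levels are given as CPM, the usual depth-scaled unit of counts, after TMM scaling, on which a floor of 3 counts is 0.0294 to 0.0809 CPM. In LN229 the targeted gene DDA1 fell (adjusted p = 6.09e-10, log2 fold change -0.53, SE 0.05), as it did in T98G (adjusted p = 0.0029, log2 fold change -0.20, SE 0.05), and in the libraries labelled U118-MG it did not pass the test (adjusted p = 0.454, log2 fold change 0.09, SE 0.10). Of 11 glial and glioma markers, 4 to 9 were at 1 CPM or more in a group. GFAP, S100B and ALDH1L1 were under it apart from GFAP at 3.02 CPM in U118-MG sgCon, whereas group means of VIM ran from 66.0 to 2384 CPM, SLC1A3 from 4.58 to 99.7 CPM, SOX9 from 7.58 to 136 CPM and SOX2 from 0.126 to 18.6 CPM. The 3 control libraries labelled U118-MG stood apart. Their log2 levels correlated at 0.962, 0.983 and 0.987 with the mean of LN229 sgDDA1, and at 0.844, 0.864 and 0.855 with that of U118-MG sgDDA1. Within this group the chi-square per gene between sgCon 1 and the other libraries was 153 and 154, against 3.53 to 19.6 within the U118-MG sgDDA1 group and 3.80 to 6.36 within the groups of LN229 and T98G. The comparisons below were therefore fitted on the other 15 libraries with edgeR's quasi-likelihood test, and values with all 18 are given where a call depends on them. Gene coordinates are on GRCh38, and a bare value given for a gene in a comparison is its log2 fold change.

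Of the 38 genes, 34 reached a group mean of 1 CPM somewhere and 4 did not, the leukocyte integrin subunits ITGAL, ITGB2 and ITGB7 and the epithelial subunit ITGB6. ITGB6 had at most 8 counts in a library and was the only member left out of the tests by the filter on low counts, so 37 were tested among 24418 genes. The highest group was U118-MG sgDDA1 for 15 of the 34 expressed genes, and LN229 sgCon was the lowest group for 16 of them. The matching shares of all genes were not worked out, so these counts describe the members only. Per gene length, in the deposited FPKM, ITGB1, the beta partner of most matrix-binding integrins, led the beta subunits by its mean in all 6 groups. It ran from 12.9 ± 0.490 FPKM (SD, n = 3) in LN229 sgCon to 225 ± 3.83 FPKM in U118-MG sgDDA1. LAMC1, the gamma chain of most laminins, likewise led the gamma chains, with 36.8 ± 1.18 FPKM in LN229 sgCon and 146 ± 2.57 FPKM in U118-MG sgDDA1.

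**Figure D1:**
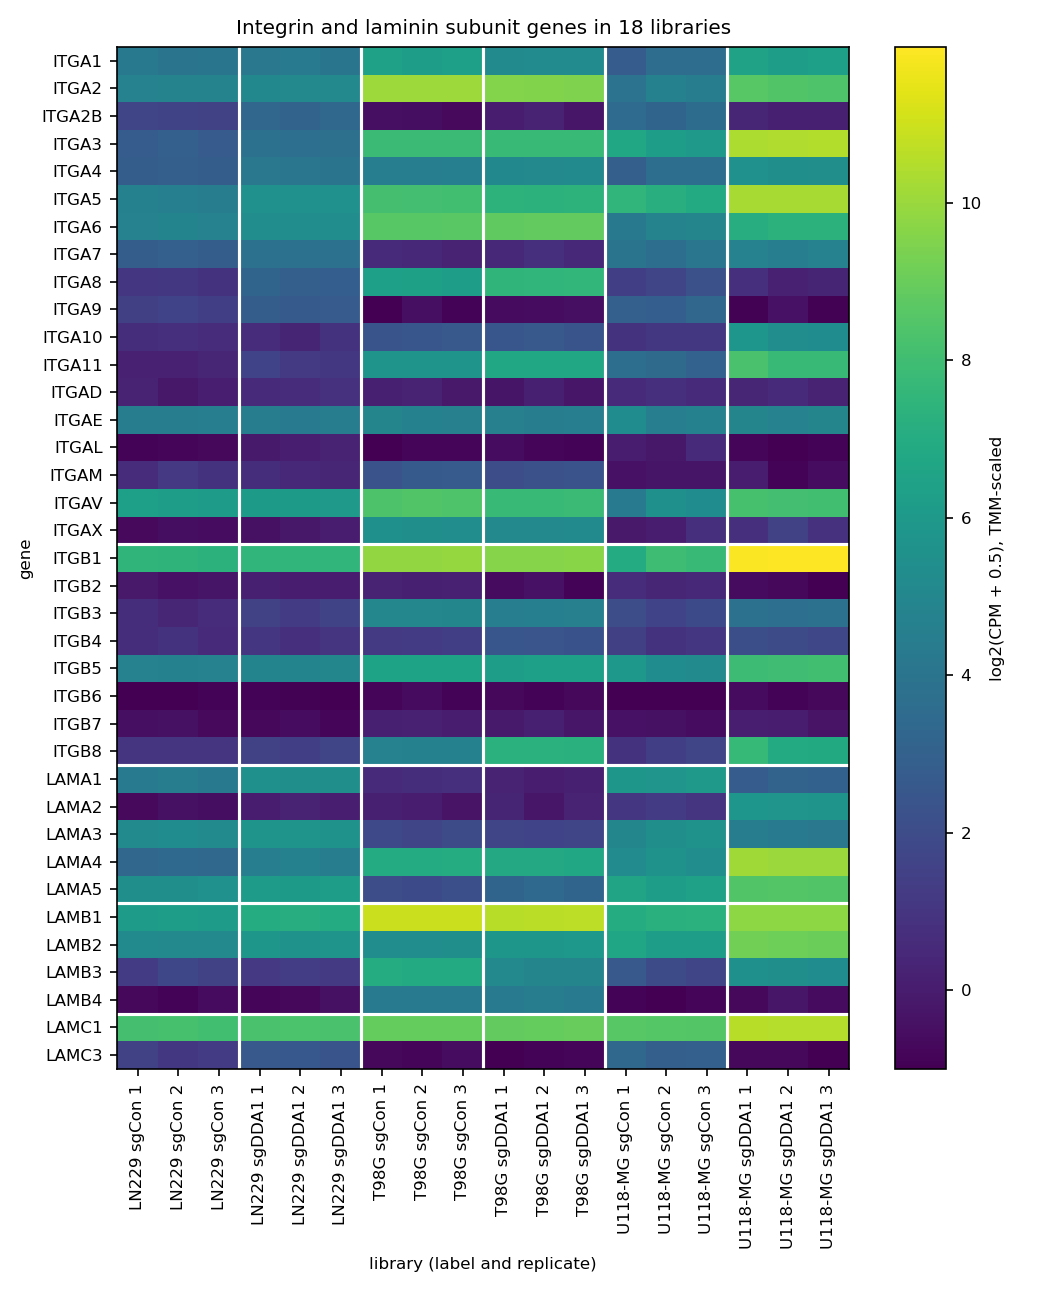
Levels of 37 of the 38 genes (rows, by class) in 18 libraries (columns, 3 per group), coloured as log2 of TMM-scaled CPM plus a pseudocount of 0.5. U118-MG sgDDA1 was the highest group for 15 of the 34 genes that reached 1 CPM, with the share of all genes not worked out. ITGB1 and LAMC1 stand among the brightest rows in all groups.

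The leading alpha subunit and the leading laminin alpha and beta chains differed between lines on the FPKM scale. In LN229 sgCon the leading integrin alpha subunit was ITGAV, a receptor for RGD proteins, at 9.98 ± 0.526 FPKM. T98G sgCon was led by ITGA2, a collagen receptor, at 129.9 ± 0.579 FPKM, and U118-MG sgDDA1 by ITGA5, the fibronectin receptor, at 138 ± 2.86 FPKM. LAMA5, a chain of many adult basement membranes, led the laminin alpha chains in LN229 sgCon at 3.48 ± 0.148 FPKM, ahead of LAMA3, an epithelial chain, at 2.85 ± 0.183 FPKM. In T98G sgCon LAMA4, a chain of vascular basement membranes, made up 94.8% of the summed FPKM of the 5 alpha chains, at 10.2 ± 0.250 FPKM. LAMA4 also led in U118-MG sgDDA1, at 73.4 ± 3.19 FPKM, followed by LAMA5 at 20.5 ± 0.0196 FPKM. Among the beta chains LAMB1 led in T98G sgCon at 102 ± 0.977 FPKM and LAMB2 in U118-MG sgDDA1 at 66.8 ± 3.47 FPKM. In each of these cases every library of the leading gene lay above every library of the next gene of its class.

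**Figure D2:**
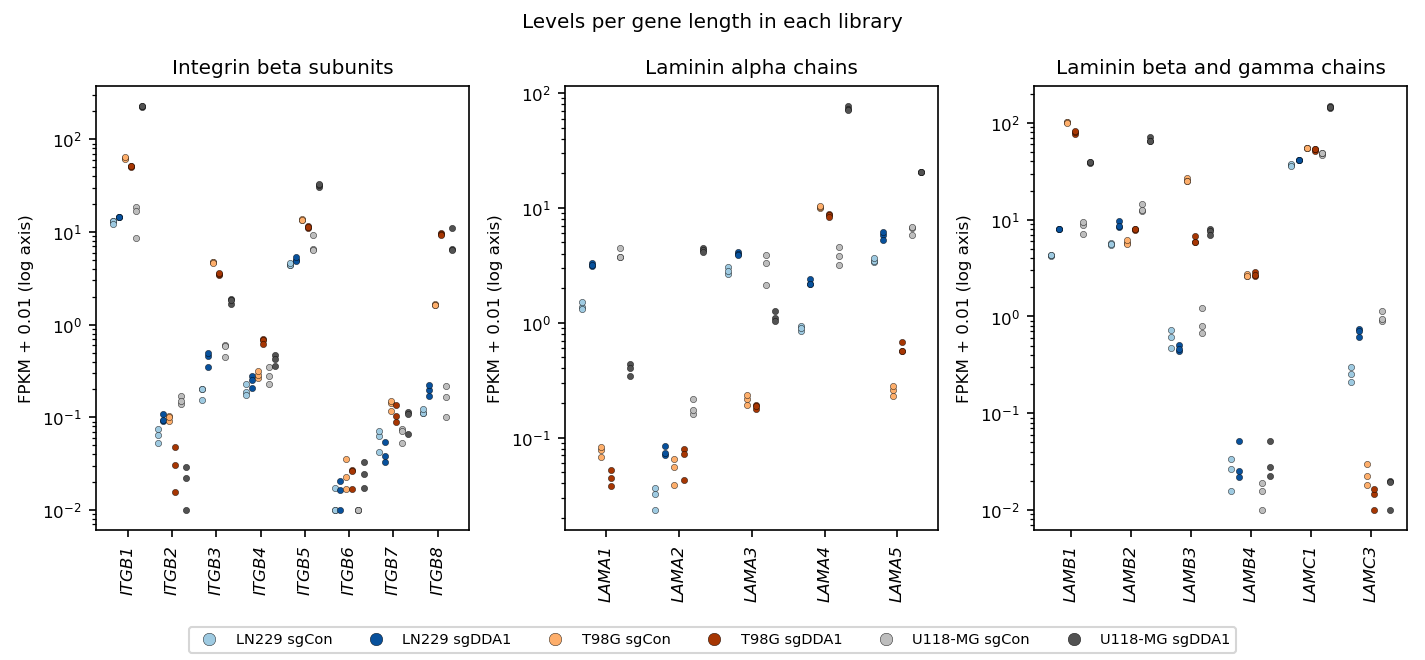
Deposited FPKM plus a small constant, on a log axis, of integrin beta subunits, laminin alpha chains and laminin beta and gamma chains; each point is a library and colours mark the 6 groups. ITGB1 and LAMC1 lead their classes, and LAMA4 leads the laminin alpha chains in T98G and in U118-MG sgDDA1 but not in LN229.

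RefSeq (GRCh38.p14) gave 33 windows of 250 bases before a transcription start, for 26 of the 38 genes. Below are 5 of them, for ITGA8 and ITGA11, which rose in both LN229 and T98G with the DDA1 guide, for ITGB8 and LAMB3, with large changes in T98G, and for LAMA3, the partner chain of LAMB3. Capitals mark every match, on either strand, to the AP-1 motif TGANTCA, the TEAD motif GGAATG, the hypoxia response element core ACGTG, the CCAAT box and the SP1 GC box GGGCGG. The ITGA8 window is chr10:15719923-15720172, minus strand, and that of ITGA11 is chr15:68432164-68432413, minus strand. The ITGB8 window is chr7:20330650-20330899, plus strand, that of LAMA3 chr18:23872770-23873019, plus strand, and the one shown of the 3 LAMB3 windows, picked as the only one of them with the AP-1 letters, is chr1:209651375-209651624, minus strand. By the gene coordinates used here, the LAMA3 window and the LAMB3 window shown lie inside the gene, before internal starts. Those of ITGA8 and ITGB8 overlap their gene for most of their length.
ITGA8: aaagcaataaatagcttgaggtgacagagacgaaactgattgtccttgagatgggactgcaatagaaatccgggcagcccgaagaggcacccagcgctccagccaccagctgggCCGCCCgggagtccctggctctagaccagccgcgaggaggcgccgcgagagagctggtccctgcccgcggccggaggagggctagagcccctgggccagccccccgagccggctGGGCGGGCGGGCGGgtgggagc
ITGA11: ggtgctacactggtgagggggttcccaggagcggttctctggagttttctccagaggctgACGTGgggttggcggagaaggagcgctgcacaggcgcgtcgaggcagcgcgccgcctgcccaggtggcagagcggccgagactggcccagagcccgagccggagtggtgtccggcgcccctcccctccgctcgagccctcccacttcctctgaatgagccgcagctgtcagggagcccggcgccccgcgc
ITGB8: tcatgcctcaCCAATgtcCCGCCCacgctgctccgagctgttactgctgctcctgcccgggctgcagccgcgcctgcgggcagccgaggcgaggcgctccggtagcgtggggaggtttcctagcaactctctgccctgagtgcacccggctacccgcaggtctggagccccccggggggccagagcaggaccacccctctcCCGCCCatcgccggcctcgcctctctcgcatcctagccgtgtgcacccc
LAMA3: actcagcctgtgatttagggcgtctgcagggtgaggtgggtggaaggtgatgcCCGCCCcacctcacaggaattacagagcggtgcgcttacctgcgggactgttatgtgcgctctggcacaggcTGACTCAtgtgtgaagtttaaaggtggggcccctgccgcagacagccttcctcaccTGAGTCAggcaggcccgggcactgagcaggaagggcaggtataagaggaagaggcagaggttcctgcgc
LAMB3: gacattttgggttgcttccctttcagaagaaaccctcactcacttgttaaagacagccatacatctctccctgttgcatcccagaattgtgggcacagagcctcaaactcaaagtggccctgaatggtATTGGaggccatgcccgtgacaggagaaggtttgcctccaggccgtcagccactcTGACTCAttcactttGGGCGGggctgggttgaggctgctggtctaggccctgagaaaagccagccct
LAMA3 and LAMB3, whose products join in the epithelial laminin of hemidesmosomes, were the only 2 of the 26 genes with AP-1 letters. Each had them in 1 window, so in 2 of the 33 windows of members, near the share of the AP-1 motif over all windows. That motif stood in 6.57% of 35116 promoter windows of the same length, the TEAD motif in 11.9%, the hypoxia core in 18.5%, the CCAAT box in 32.0% and the GC box in 42.6%. GC box letters were found in 17 of the 33 member windows, those of ITGA8 and ITGB8 among them, CCAAT in 5, TEAD in 4 and the hypoxia core in 3, one of them that of ITGA11. A match of letters is a description of the sequence and no evidence that a factor binds there.

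The first comparison asked how the subunits differed between LN229 with the DDA1 guide and LN229 with the control guide. Integrin and laminin subunits were mostly higher with sgDDA1: 25 of 37 tested genes were higher and 2 lower by edgeR's test at an adjusted p under 0.05. That is 73.0% called, against 44.9% of all genes tested, of which 25.9% were higher and 19% lower. The median log2 fold change was 0.67, against 0.07 over all genes. Changes of at least 2-fold were found in 14 genes, all higher, against 9.94% of all genes higher by that much and 1.26% lower. Of these 14, 13 had a mean under 10 CPM in LN229 sgCon. Genes under that level were 2-fold higher in 15.5% of cases over the whole table, and genes above it in 1.07%. In bulk libraries fewer cells that express a gene and less RNA of it per cell cannot be told apart.

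Of the 18 integrin alpha subunits 13 were higher in LN229 sgDDA1 (72.2%, against 25.9% of all genes). ITGA8 (ENSG00000077943, chr10:15513949-15720125, minus strand), a receptor for nephronectin in the developing kidney, was at 1.56, 1.62 and 1.37 CPM in the 3 sgCon libraries and at 8.58, 7.02 and 6.97 CPM in sgDDA1 (adjusted p = 4.98e-17, log2 fold change 2.30, SE 0.11). It had the largest change among members that reached 1 CPM, and the groups were well apart. ITGA2B (ENSG00000005961, chr17:44372180-44389505, minus strand), the platelet fibrinogen receptor subunit, stood at 2.74, 2.69 and 2.33 CPM and at 9.08, 8.34 and 9.63 CPM (adjusted p = 3.33e-11, log2 fold change 1.80, SE 0.16). Its platelet partner ITGB3 (ENSG00000259207, chr17:47253846-47311816, plus strand), which also pairs with ITGAV, was at 1.14, 0.827 and 1.09 CPM and 2.500, 1.88 and 2.66 CPM (adjusted p = 1.92e-08, log2 fold change 1.17, SE 0.14). Both rose with no overlap between groups, while the platelet genes PF4, PPBP and GP9 had at most 4 counts in any library. The summed level of the 4 platelet markers was 3.91 to 5.00 CPM in sgCon and 4.02 to 5.69 CPM in sgDDA1, of which GP1BA made up 4.28 and 4.95 CPM by its means.

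ITGA11 (ENSG00000137809, chr15:68296533-68432162, minus strand), a collagen receptor of mesenchymal cells, was at 0.646, 0.639 and 0.812 CPM in LN229 sgCon and at 2.52, 1.77 and 1.67 CPM in sgDDA1 (adjusted p = 0.00222, log2 fold change 1.52, SE 0.32). It was also the only member in the authors' deposited table of differential genes for LN229, where it stood among the 36 higher genes with a log2 fold change of 1.45 and an adjusted p of 1.15e-06. None of the 6 lower genes of that table was a member. That table holds far fewer genes than were called here, where 2428 were higher by at least 2-fold. ITGA8, with a larger change in this fit, is not in it. The collagen receptors other than ITGA11 did not move as far. ITGA2 was higher by a log2 fold change of 0.30 (SE 0.05), a call lost with all 18 libraries at 0.30, and ITGA1 and ITGA10 did not pass the test, with 0.09 (SE 0.07) and -0.07 (SE 0.21).

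ITGA3, ITGA6 and ITGA7, alpha subunits of laminin receptors, were higher. ITGA3 (ENSG00000005884, chr17:50055968-50090481, plus strand) was at 6.42, 7.37 and 6.17 CPM in sgCon and 14.4, 13.1 and 13.6 CPM in sgDDA1 (adjusted p = 8.26e-16, log2 fold change 1.05, SE 0.06). ITGA7 (ENSG00000135424, chr12:55684568-55716043, minus strand), best known from muscle, was at 6.69, 7.52 and 6.52 CPM and 14.5, 13.9 and 14.1 CPM (adjusted p = 4.38e-10, log2 fold change 1.04, SE 0.10). ITGA6 rose less, with a log2 fold change of 0.57 (SE 0.05). The lowest sgDDA1 library was above the highest sgCon library for each of these genes.

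Receptors for fibronectin, VCAM1 and tenascin differed too. ITGA5 (ENSG00000161638, chr12:54395261-54419460, minus strand), the fibronectin receptor, rose from 25.3, 23.6 and 22.5 CPM to 47.5, 46.7 and 47.0 CPM (adjusted p = 3.23e-18, log2 fold change 0.98, SE 0.04). ITGA4 (ENSG00000115232, chr2:181457202-181536187, plus strand), which binds VCAM1 and fibronectin, was at 6.65, 7.11 and 6.52 CPM and 17.9, 16.5 and 15.3 CPM (adjusted p = 4.87e-16, log2 fold change 1.29, SE 0.07). ITGA9 (ENSG00000144668, chr3:37452115-37823514, plus strand), a receptor for tenascin-C, was at 2.21, 2.56 and 2.12 CPM and 6.60, 5.91 and 6.22 CPM (adjusted p = 0.000117, log2 fold change 1.44, SE 0.27). For all 3 genes the groups did not overlap, and ITGA9 missed the threshold in the DESeq2 test at a log2 fold change of 1.44. ITGAV, the leading alpha subunit of LN229 per length, went the other way, from 79.0, 75.2 and 68.7 CPM to 66.1, 66.5 and 63.7 CPM (adjusted p = 0.0015, log2 fold change -0.19, SE 0.05), a call lost in the fit with all 18 libraries at -0.18.

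Of the leukocyte alpha subunits, ITGAX, ITGAD and ITGAL were low in LN229. ITGAX (ENSG00000140678, chr16:31355134-31382997, plus strand) was at 0.127, 0.188 and 0.166 CPM in sgCon and 0.252, 0.402 and 0.503 CPM in sgDDA1 (adjusted p = 0.00347, log2 fold change 1.32, SE 0.36), and ITGAD (ENSG00000156886, chr16:31393312-31426505, plus strand) at 0.695, 0.395 and 0.572 CPM and 0.935, 1.08 and 1.33 CPM (adjusted p = 0.00731, log2 fold change 0.98, SE 0.30). ITGAL, with at most 0.665 CPM in this line, was higher (adjusted p = 0.000407, log2 fold change 2.86, SE 0.64). ITGAE, which was not low, had means of 22.5 CPM in sgCon and 20.8 CPM in sgDDA1, and ITGAM 1.38 and 0.959 CPM. Neither passed, with -0.11 (SE 0.07) and -0.50 (SE 0.26). The summed level of 10 leukocyte markers was 2.35 to 3.29 CPM in LN229 sgCon and 4.04 to 5.23 CPM in sgDDA1, with 1 of the 10 at 1 CPM or more in each group. The part of these markers in the leukocyte subunits was not tested.

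The median over the 7 tested beta subunits in LN229 was 0.29, and that over the 18 alpha subunits 1.01. Of the 7 beta subunits 42.9% were called, against 44.9% of all genes. Beside ITGB3, 2 beta subunits were called, ITGB1 at 0.12 (SE 0.04, adjusted p = 0.0123) and ITGB5, another partner of ITGAV, at 0.15 (SE 0.05, adjusted p = 0.00984). Neither call held with all 18 libraries, at 0.12 and 0.15, ITGB1 lost it without LN229 sgCon 3 at 0.08, and ITGB5 lost it without LN229 sgDDA1 3 at 0.11. ITGB8 lay higher in all 3 sgDDA1 libraries, at 2.46, 2.16 and 2.82 CPM against 1.43, 1.41 and 1.53 CPM, without passing the test (adjusted p = 0.125, log2 fold change 0.77, SE 0.37). It passed in 3 alternatives, each at a log2 fold change of 0.77. These were edgeR's fit of all 18 libraries (adjusted p = 0.0148), edgeR's fit of the 12 LN229 and T98G libraries alone (adjusted p = 3.54e-08) and the DESeq2 test (adjusted p = 0.00103).

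All 5 laminin alpha chains were higher in LN229 sgDDA1, against 25.9% of all genes. LAMA1 (ENSG00000101680, chr18:6941744-7117814, minus strand), the chain of the earliest embryonic basement membranes, was at 19.8, 21.5 and 18.5 CPM in sgCon and 45.2, 43.4 and 44.0 CPM in sgDDA1 (adjusted p = 1.47e-13, log2 fold change 1.15, SE 0.08). LAMA4 (ENSG00000112769, chr6:112108760-112254939, minus strand) was at 9.18, 10.2 and 9.47 CPM and 22.7, 25.7 and 22.5 CPM (adjusted p = 1.13e-18, log2 fold change 1.31, SE 0.06). LAMA2 (ENSG00000196569, chr6:128883141-129516569, plus strand), the chain of muscle and peripheral nerve, stayed under 1 CPM, at 0.127, 0.244 and 0.203 CPM and 0.540, 0.676 and 0.575 CPM (adjusted p = 6.72e-06, log2 fold change 1.74, SE 0.29). The groups of these 3 chains did not overlap. LAMA5 and LAMA3, the leading alpha chains of the line per length, were higher by log2 fold changes of 0.67 (SE 0.05) and 0.43 (SE 0.07).

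Among the other chains LAMB1 (ENSG00000091136, chr7:107923799-108003255, minus strand), a beta chain of most laminins, rose from 72.4, 73.3 and 70.6 CPM to 130.2, 133 and 128 CPM (adjusted p = 2.27e-18, log2 fold change 0.86, SE 0.04), and LAMB2 by a log2 fold change of 0.63 (SE 0.05). LAMC3 (ENSG00000050555, chr9:131009082-131094473, plus strand), a gamma chain known for its part in cortical development, was at 2.38, 1.62 and 1.96 CPM and 5.67, 5.55 and 4.74 CPM (adjusted p = 2.03e-06, log2 fold change 1.41, SE 0.22). LAMC1 changed by 0.13 (SE 0.04, adjusted p = 0.00611), and LAMB4 did not pass the test. LAMB3 was lower, at -0.36 (SE 0.14, adjusted p = 0.0394), with overlapping groups at 1.96, 3.03 and 2.49 CPM and 1.74, 2.04 and 1.81 CPM. The LAMB3 call was lost without sgCon 2 at -0.21, without sgCon 3 and without sgDDA1 3 at -0.34 each, without sgDDA1 1 at -0.31, and with all 18 libraries at -0.39. LAMC1 lost its call without sgCon 3 at 0.09, and with all 18 libraries at 0.13.

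Other markers moved beside these genes in LN229. The 5 fibroblast and pericyte markers summed to 13.1 to 15.5 CPM in sgCon and 27.8 to 31.7 CPM in sgDDA1, with 1 of 5 at 1 CPM or more in both, COL1A1 at 12.8 and 27.3 CPM. COL1A2, at 4461 CPM in U118-MG sgDDA1, was at 0.718 CPM in LN229 sgCon and 0.416 CPM in LN229 sgDDA1, 0.00933% of its U118-MG level. LUM and DCN, other fibroblast genes, went the other way by their means in LN229. LUM was at 0.0316 CPM in sgCon and 0.733 CPM in sgDDA1, and DCN at 0.0690 and 0.593 CPM. In LN229 sgDDA1 they stood at 0.124% and 0.246% of their U118-MG sgDDA1 level. The rises of ITGA11, ITGA3, LAMA2, LAMA4 and ITGA5 in LN229 came to 0.513%, 0.512%, 0.747%, 1.31% and 1.87% of their U118-MG sgDDA1 level. The 5 epithelial markers summed to 77.7 to 80.8 CPM in sgCon and 129.9 to 133.0 CPM in sgDDA1, with KRT8 at means of 43.6 and 94.4 CPM, EPCAM at 2.90 and 5.83 CPM, KRT18 at 31.6 and 30.9 CPM, CDH1 at 1.04 and 0.838 CPM and KRT5 at 0.0439 and 0.00599 CPM. The 11 glial and glioma markers summed to 216 to 233 CPM in sgCon and 222 to 231 CPM in sgDDA1. Of these, 6 were at 1 CPM or more in sgCon, and they went both ways by their means. NES was at 9.97 and 57.0 CPM, SOX9 at 7.58 and 11.2 CPM and OLIG2 at 3.39 and 4.87 CPM. SLC1A3 was at 99.7 and 64.7 CPM, VIM at 82.7 and 66.0 CPM and SOX2 at 18.6 and 17.8 CPM. The 5 endothelial markers summed to 1.13 to 1.36 CPM in sgCon and 2.48 to 2.71 CPM in sgDDA1. The part of these markers in the LN229 results was not tested.

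The control libraries labelled U118-MG resembled LN229 sgDDA1 in several subunits that were low in U118-MG sgDDA1. ITGA2B was at 11.1, 8.51 and 11.7 CPM in these 3 libraries and 0.809, 0.608 and 0.606 CPM in U118-MG sgDDA1. LAMA1 was at 58.8, 53.7 and 63.0 CPM and 6.47, 8.18 and 7.58 CPM, and LAMC3 at 9.92, 7.25 and 7.36 CPM and 0.108, 0.101 and 0 CPM. By their means, these controls were at 10.4, 58.5 and 8.18 CPM for the 3 genes, against 9.02, 44.2 and 5.32 CPM in LN229 sgDDA1 and 2.59, 19.9 and 1.98 CPM in LN229 sgCon. ITGA9 had the same order, at 7.48, 6.83 and 9.41 CPM against 0.0270, 0.278 and 0.0253 CPM, whereas ITGA8, at 2.20, 2.76 and 4.14 CPM, stayed below LN229 sgDDA1. ITGA11, ITGA3 and LAMA4, which are abundant in U118-MG sgDDA1, stood at 3.13% to 4.91%, 4.50% to 7.61% and 3.54% to 4.68% of that level, and COL1A2 at 3.32% to 5.43%.

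**Figure D3:**
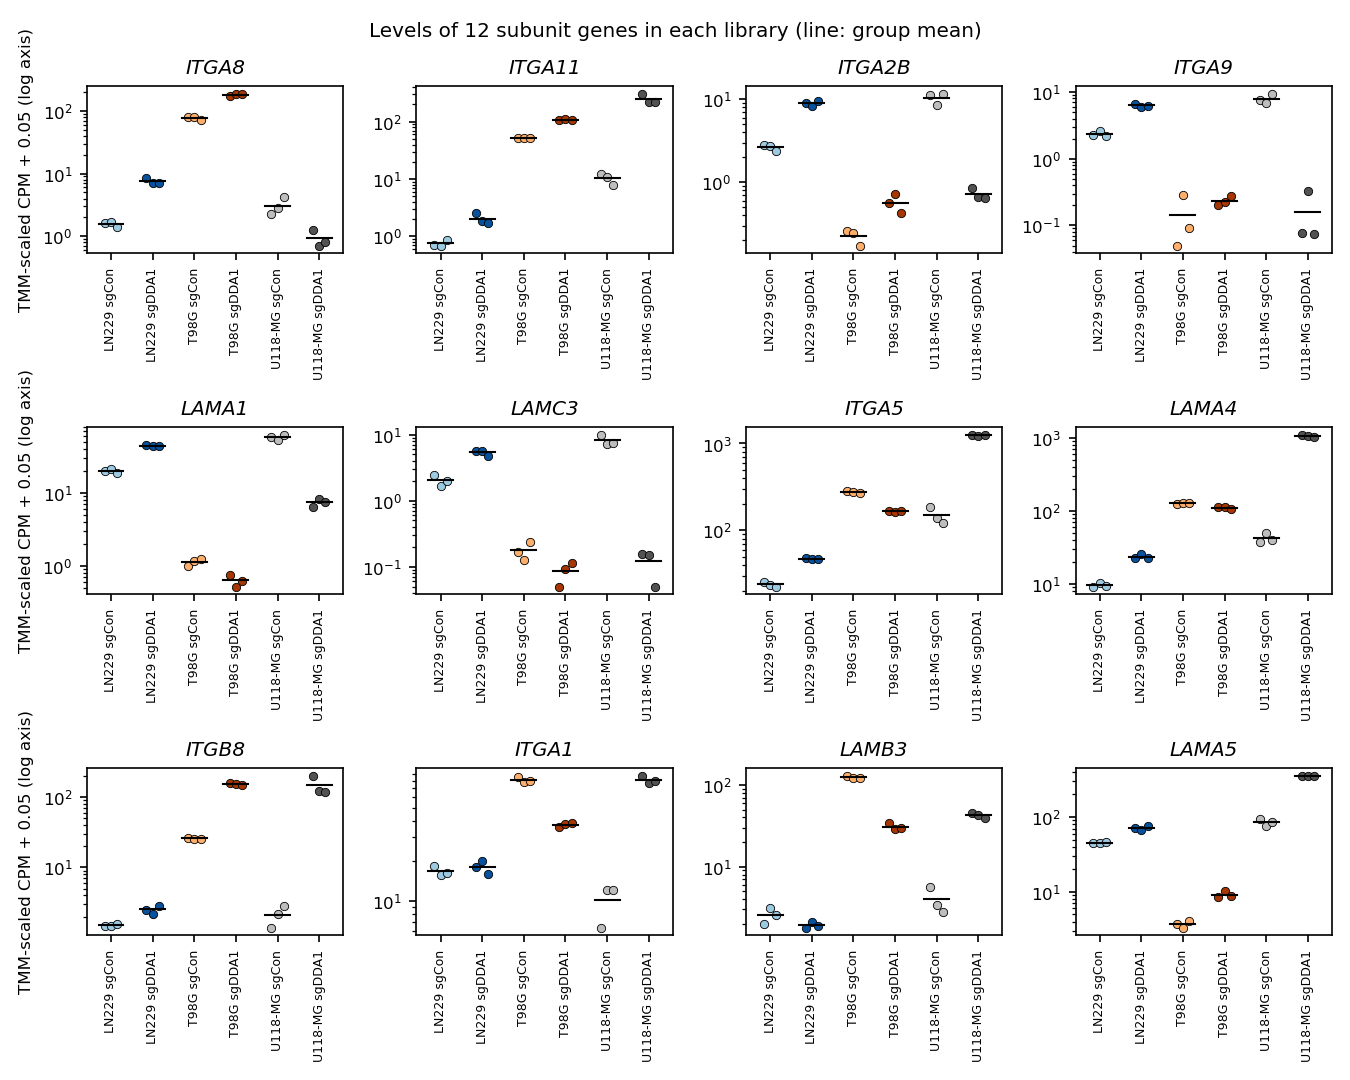
TMM-scaled CPM plus a small constant, on log axes, of 12 genes in every library; points are libraries, lines are means of 3 and colours mark the 6 groups. ITGA8 and ITGA11 are higher with sgDDA1 in both LN229 and T98G, ITGA5 and LAMA4 are higher in LN229 and lower in T98G, and the controls labelled U118-MG lie near LN229 sgDDA1 for ITGA2B, ITGA9, LAMA1 and LAMC3.

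In T98G the same comparison gave fewer rises and more falls. Of 37 tested genes 9 were higher and 15 lower with sgDDA1 (64.9% called, against 38.3% of all genes, with 19% higher and 19.3% lower). The median log2 fold change was -0.20, against 0 over all genes. Changes of at least 2-fold were found in 6 higher and 4 lower members, against 4.03% and 3.76% of all genes, or 7.79% in either direction.

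ITGB8 (ENSG00000105855, chr7:20330702-20415754, plus strand), which pairs with ITGAV and activates latent TGF-beta, had the largest rise in T98G. It was at 26.3, 25.7 and 25.7 CPM in the sgCon libraries and 158, 154 and 151 CPM in sgDDA1, a 5.96-fold difference (adjusted p = 5.91e-07, log2 fold change 2.58, SE 0.18). No library of one group came near the other, while ITGAV itself fell, from 330.3, 348 and 339 CPM to 218, 222 and 229 CPM (adjusted p = 8.06e-13, log2 fold change -0.61, SE 0.05). Per length ITGB8 passed from 1.64 ± 0.0212 FPKM to 9.48 ± 0.235 FPKM, close to ITGB5 at 11.3 ± 0.247 FPKM. ITGB4 (ENSG00000132470, chr17:75721328-75757818, plus strand), the partner of ITGA6 in hemidesmosomes, was at 1.81, 1.93 and 2.18 CPM and 5.07, 4.91 and 4.41 CPM (adjusted p = 3.41e-07, log2 fold change 1.28, SE 0.18). ITGB1, ITGB3 and ITGB5 were lower, at -0.25 (SE 0.04), -0.38 (SE 0.08) and -0.21 (SE 0.04), and the ITGB1 and ITGB5 calls were lost with all 18 libraries at -0.25 and -0.21. ITGB2, at most 0.676 CPM in T98G, was lower, at -2.01 (SE 0.51, adjusted p = 0.00184).

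The alpha subunits of T98G split. ITGA8 was at 79.2, 81.6 and 73.1 CPM in sgCon and 177, 185 and 191 CPM in sgDDA1 (adjusted p = 1.3e-16, log2 fold change 1.24, SE 0.06), and ITGA11 at 52.5, 52.4 and 51.3 CPM and 108, 111 and 107 CPM (adjusted p = 2.34e-05, log2 fold change 1.06, SE 0.12). ITGA2B was under 1 CPM in every T98G library, at 0.212, 0.195 and 0.123 CPM and 0.516, 0.670 and 0.376 CPM (adjusted p = 0.000244, log2 fold change 1.53, SE 0.33). These 3 rose with no overlap, as in LN229, and ITGA4 and ITGA6 rose by 0.53 (SE 0.06) and 0.22 (SE 0.05), the latter call lost with all 18 libraries at 0.22. ITGA9, near the floor in T98G, did not pass (0.99, SE 0.71) but did without sgCon 2, at 3.07. ITGA1 (ENSG00000213949, chr5:52787896-52959210, plus strand), a receptor for collagens and laminins, fell from 85.2, 78.1 and 79.3 CPM to 35.7, 37.6 and 38.4 CPM (adjusted p = 1.45e-14, log2 fold change -1.12, SE 0.07). ITGA5 was at 281, 273 and 269 CPM and 167, 161 and 168 CPM (adjusted p = 3.07e-16, log2 fold change -0.73, SE 0.04), and ITGA2, the leading alpha subunit of the line per length, at 1069, 1074 and 1069 CPM and 749, 736 and 713 CPM (adjusted p = 4.3e-12, log2 fold change -0.55, SE 0.04). All 3 of these genes had every sgDDA1 library below every sgCon library. ITGAX was lower, at -0.34 (SE 0.10), a call lost with all 18 libraries at -0.34 and by DESeq2. ITGAE was lower, at -0.21 (SE 0.07), a call lost with all 18 libraries at -0.21, without sgCon 1 at -0.14 and without sgDDA1 2 at -0.17.

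Of the laminin chains in T98G, LAMA5 (ENSG00000130702, chr20:62307955-62367312, minus strand) and LAMB2 were higher. LAMA5 was at 3.71, 3.29 and 4.05 CPM in sgCon and 8.53, 10.2 and 8.69 CPM in sgDDA1 (adjusted p = 1.05e-14, log2 fold change 1.31, SE 0.08), and LAMB2 rose by 0.49 (SE 0.05). LAMB3 (ENSG00000196878, chr1:209614870-209652466, minus strand), the beta chain of the epithelial laminin, fell: it was at 130.0, 122 and 121 CPM and 33.9, 29.04 and 29.5 CPM (adjusted p = 3.03e-17, log2 fold change -2.01, SE 0.08). Its alpha partner LAMA3 did not pass the test, at 3.13, 2.73 and 3.39 CPM and 2.81, 2.57 and 2.798 CPM (adjusted p = 0.267, log2 fold change -0.17, SE 0.12). LAMB3 had no overlap between groups, and the LAMA3 groups overlapped. LAMA1, LAMA4 and LAMB1 were lower, at -0.89 (SE 0.20), -0.20 (SE 0.05) and -0.31 (SE 0.04), and the LAMA4 call was lost with all 18 libraries at -0.20. LAMC3, with at most 9 counts in a T98G library, did not pass (-1.75, SE 0.73) but did without sgCon 2 at -2.00 and without sgDDA1 3 at -2.42. LAMC1, the most abundant laminin chain of the gamma class, was at 481, 488 and 483 CPM and 468, 484 and 493 CPM (adjusted p = 0.924, log2 fold change -0.01, SE 0.04). The 5 epithelial markers summed to 89.7 to 94.6 CPM in T98G sgCon and 69.5 to 74.5 CPM in sgDDA1, 3 of 5 at 1 CPM or more in both, with KRT5 at 0 counts in sgDDA1. KRT18 was at means of 78.8 and 53.6 CPM and KRT8 at 11.7 and 16.5 CPM. The part of these markers in the fall of LAMB3 was not tested.

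Set side by side, 7 members were higher with sgDDA1 in both lines, namely ITGA2B, ITGA4, ITGA6, ITGA8, ITGA11, LAMA5 and LAMB2. Lower in both were 2, ITGAV and LAMB3. A larger set of 9 was higher in LN229 and lower in T98G, and it held ITGA2, ITGA5, ITGAX, ITGB1, ITGB3, ITGB5, LAMA1, LAMA4 and LAMB1. Neither of the 2 members lower in LN229 was higher in T98G, and 4 members were called in neither line. No share of all genes was worked out for these crossed sets, so whether they stand out was not tested. Taken line by line, 25.9% of all genes were higher and 19% lower in LN229, and 19% and 19.3% in T98G. The difference of response itself, T98G minus LN229, was tested in the same edgeR fit. It passed for 26 of 37 members (70.3%, against 33.8% of all genes), with 3 more positive in T98G (15.5% of all genes) and 23 more negative (18.3% of all genes). Responses differed at least 2-fold in 1 more positive member (2.25% of all genes) and 15 more negative ones (8.17%). The median difference was -0.77, against -0.03 over all genes.

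**Figure D4:**
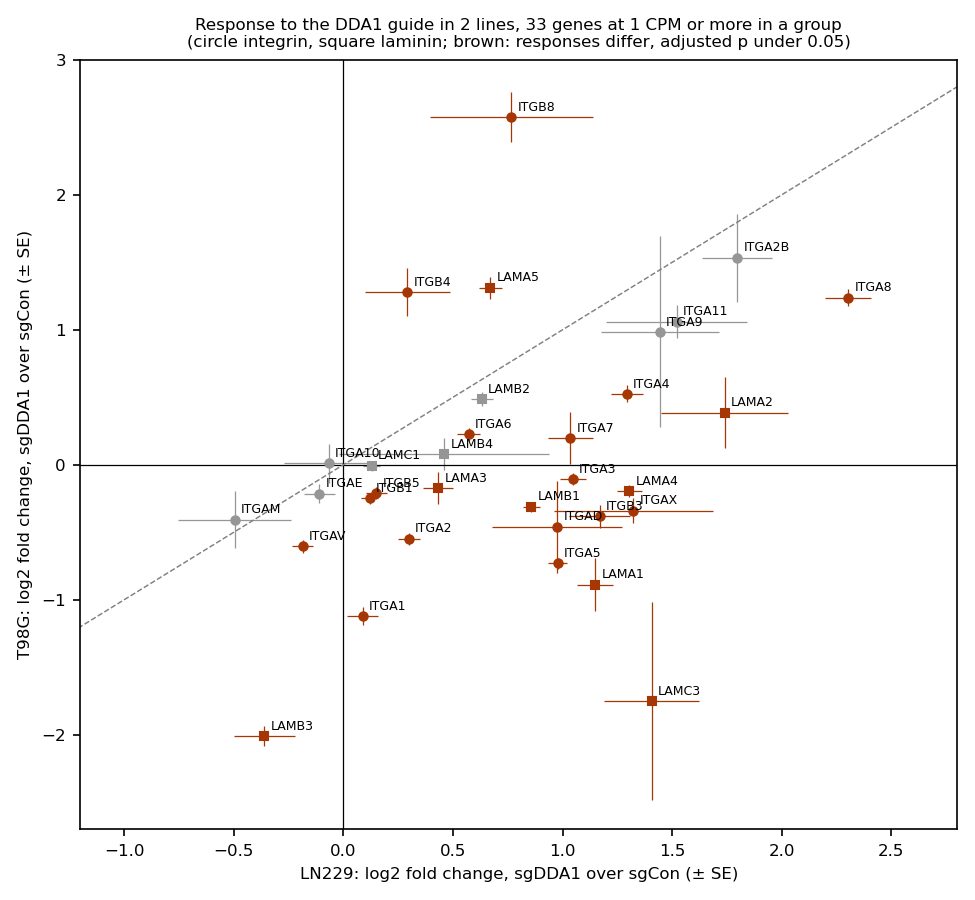
Log2 fold change of sgDDA1 over sgCon in LN229 (x axis) and in T98G (y axis) with SE bars, for 33 of the 34 members at 1 CPM or more in some group; circles are integrins, squares laminins, brown marks members whose responses differ, and the dashed line marks equal responses. Most members lie right of 0 and below the dashed line, with ITGB8, ITGB4 and LAMA5 above it.

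The 3 members with the more positive response in T98G were ITGB8 (adjusted p = 0.00679, log2 fold change 1.81, SE 0.43), ITGB4 (adjusted p = 0.00318, log2 fold change 0.99, SE 0.26) and LAMA5 (adjusted p = 3e-06, log2 fold change 0.64, SE 0.10). The other way went ITGA5, which rose 1.97-fold in LN229 and fell in T98G (adjusted p = 7.73e-21, log2 fold change -1.71, SE 0.06). LAMA4 and LAMB1 followed the same pattern, with differences of -1.50 (SE 0.07, adjusted p = 2.44e-17) and -1.17 (SE 0.05, adjusted p = 3.97e-18). LAMA1 differed by -2.04 (SE 0.21), where its T98G level was near 1 CPM. ITGA8 rose in both lines, but less in T98G (adjusted p = 4.43e-08, log2 fold change -1.06, SE 0.12). For ITGA11 and ITGA2B the difference did not pass, with -0.46 (SE 0.35) and -0.26 (SE 0.40), but that of ITGA11 passed in a fit of the 12 LN229 and T98G libraries alone, at -0.46. The difference of LAMA2 lost its call without LN229 sgCon 1, at -1.03, and in the fit of those 12 libraries, at -1.30. That of LAMC1 did not pass in the main fit. It passed in several alternatives, among them the fit of the 12 libraries at -0.14 and the DESeq2 test at -0.17. With all 18 libraries the calls of ITGA6, ITGAV, ITGB1, ITGB5 and LAMA3 were lost, at -0.35, -0.42, -0.37, -0.36 and -0.61.

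The next comparisons were between lines. Between T98G and LN229 under the control guide, 27 members were higher in T98G and 7 lower (91.9% called, against 73.8% of all genes, with 36.3% higher and 37.5% lower). At least 2-fold were 23 of the higher and all 7 of the lower ones, against 44% of all genes in either direction. The median log2 fold change was 1.81, against -0.05 over all genes. ITGAX stood at 45.4, 43.9 and 41.3 CPM in T98G sgCon and 0.127, 0.188 and 0.166 CPM in LN229 sgCon (adjusted p = 5.34e-26, log2 fold change 8.13, SE 0.18). LAMB4 (ENSG00000091128, chr7:108023548-108130356, minus strand) was at 18.96, 20.2 and 19.2 CPM in T98G sgCon and 0.108, 0.0376 and 0.148 CPM in LN229 sgCon (adjusted p = 2.17e-25, log2 fold change 7.57, SE 0.21), and ITGA11 differed by 6.24 (SE 0.20). All 3 genes were under 1 CPM in every LN229 sgCon library. The 7 genes lower in T98G were ITGA2B, ITGA7, ITGA9, LAMA1, LAMA3, LAMA5 and LAMC3, with log2 fold changes from -4.60 for ITGA9 to -2.97 for ITGA7. The ITGAE call was lost with all 18 libraries at 0.24. ITGAX is otherwise a leukocyte subunit, and its partner ITGB2 was at 0.676, 0.584 and 0.657 CPM in T98G sgCon, where the 10 leukocyte markers summed to 1.89 to 2.26 CPM with 1 of 10 at 1 CPM or more.

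U118-MG entered comparisons between lines with the DDA1 guide only. Against LN229 sgDDA1, 26 members were higher in U118-MG sgDDA1 and 9 lower (94.6% called, against 77.3% of all genes, with 37.1% higher and 40.2% lower). Of them 24 and 9 changed at least 2-fold, against 50.5% of all genes. ITGA11 was at 309.8, 224 and 218 CPM in U118-MG sgDDA1, ITGA3 at 1312, 1385 and 1425 CPM and LAMA2 at 56.0, 54.7 and 52.1 CPM. Their log2 fold changes over LN229 were 6.98 (SE 0.17), 6.65 (SE 0.06) and 6.49 (SE 0.15), the 3 largest by size of 37. Fibroblast and pericyte markers were high in the same libraries, with 5 of 5 at 1 CPM or more and a sum of 6677 to 8839 CPM against 27.8 to 31.7 CPM in LN229 sgDDA1, and their part was not tested.

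Against T98G sgDDA1, 21 members were higher in U118-MG sgDDA1 and 9 lower (81.1% called, against 66.2% of all genes, with 32.7% higher and 33.5% lower). Of them 16 and 6 changed at least 2-fold, against 34.7% of all genes. ITGA8, at 1.19, 0.658 and 0.758 CPM in U118-MG sgDDA1, was lower, at -7.74 (SE 0.10), and LAMB4, at 0.108, 0.354 and 0.152 CPM, had -6.62 (SE 0.21). LAMA2 was higher by 6.47 (SE 0.15), from 0.773, 0.368 and 0.689 CPM in T98G sgDDA1. All 5 laminin alpha chains were higher in U118-MG than in T98G under this guide, against 32.7% of all genes. With all 18 libraries the calls of ITGAE and ITGAV were lost, at 0.31 and 0.32. ITGB8, at 203, 122 and 117.9 CPM in U118-MG sgDDA1 and 158, 154 and 151 CPM in T98G sgDDA1, did not pass the test (adjusted p = 0.756, log2 fold change -0.07, SE 0.17). Without U118-MG sgDDA1 1 it passed at -0.37, and without sgDDA1 2 or sgDDA1 3 it was at 0.06 and 0.07.

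With the labels as given, sgDDA1 against sgCon in U118-MG had 26 members higher and 8 lower in the fit of all 18 libraries (91.9% called, against 72.2% of all genes, with 35.3% higher and 36.9% lower). At least 2-fold were 23 and 8 of them, against 50.7% of all genes. The span ran from -6.84 (SE 0.39) for LAMC3 to 6.14 (SE 0.23) for ITGB8. ITGB8 was at 1.34, 2.13 and 2.77 CPM in the control libraries so labelled, and 2.48 CPM was its mean in LN229 sgDDA1. Since these controls stood nearer to LN229 than to U118-MG sgDDA1, line and guide cannot be told apart here.

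Genes that work with the subunits were read from 3 lists, also chosen with earlier results of these data known. Of 27 tested focal adhesion adaptors, 11 were higher and 7 lower in LN229 sgDDA1 (40.7% and 25.9%, against 25.9% and 19% of all genes), with a median log2 fold change of 0.08. In T98G 9 were higher and 7 lower (33.3% and 25.9%, against 19% and 19.3% of all genes), with a median of -0.00. TNS1, a tensin that binds integrin tails, was higher in both, by 1.54 (SE 0.09) from 5.84 CPM in LN229 and by 0.66 (SE 0.20) from 0.714 CPM in T98G. LIMS2, an adaptor of the ILK complex, was higher in LN229 by 2.18 (SE 0.28) and lower in T98G, at -2.05 (SE 0.53), where its means were 0.243 and 0.0565 CPM. PARVA and ACTN4 were lower in LN229, at -0.42 (SE 0.05) and -0.30 (SE 0.04). In T98G TNS2 was higher by 0.73 (SE 0.06), and FERMT1, the epithelial kindlin, fell from 16.1 to 4.88 CPM (adjusted p = 5.35e-16, log2 fold change -1.72, SE 0.10).

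Of 21 matrix ligands and partners, 15 were higher and 2 lower in LN229 (71.4% and 9.52%, against 25.9% and 19% of all genes), with a median of 0.70. FBLN2, a basement membrane fibulin, rose from 0.936 to 4.34 CPM (adjusted p = 1.82e-09, log2 fold change 2.22, SE 0.24), and POSTN was higher by 2.62 (SE 0.50) at means of 0.0447 and 0.333 CPM. CCN2 and CCN1 were the 2 that fell, at -0.63 (SE 0.21) and -0.56 (SE 0.19). In T98G 7 were higher and 7 lower (33.3% each, against 19% and 19.3% of all genes), with a median of 0.17. THBS1, a matrix thrombospondin, fell from 882 to 358 CPM (adjusted p = 8.22e-08, log2 fold change -1.30, SE 0.09), and TNC, a ligand of ITGA9, from 63.8 to 27.2 CPM (adjusted p = 7.77e-08, log2 fold change -1.23, SE 0.09). FBLN1 rose there by 1.06 (SE 0.08) and POSTN by 1.20 (SE 0.26), to a mean of 1.04 CPM.

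Of the 17 laminin receptors outside the integrins, 9 were higher and 3 lower in LN229 (52.9% and 17.6%, against 25.9% and 19% of all genes), with a median of 0.19. In T98G 5 were higher and 7 lower (29.4% and 41.2%, against 19% and 19.3% of all genes), with a median of -0.03. BCAM, a receptor for LAMA5-containing laminins, was higher in both lines, as LAMA5 was: from 10.5 to 22.2 CPM in LN229 (adjusted p = 1.52e-07, log2 fold change 1.08, SE 0.11) and from 24.4 to 61.2 CPM in T98G (adjusted p = 4.73e-09, log2 fold change 1.33, SE 0.10). POMT1 was higher in T98G by 0.62 (SE 0.06). SGCB was lower in LN229, at -0.23 (SE 0.05). DMD and UTRN, the cytoskeletal anchors of dystroglycan, were lower in T98G, at -1.14 (SE 0.09) and -0.80 (SE 0.05).

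The genes most like the member with the largest guide change in each line were found by Pearson's correlation of log2 CPM over 15 libraries, among 16130 genes, as a description. For ITGA8 they were VSIG10L, STRA6 and SOSTDC1, with r of 0.995, 0.994 and 0.994. For ITGB8 they were PTGS2, CAT and PPARD, with r of 0.996, 0.995 and 0.995. The libraries of a line share most of their levels, so such values rest on differences between 5 groups more than on 15 separate points.

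Some counts may hold reads of neighbouring genes. In GENCODE 29, 22 of the 38 members share exon bases with another gene, 18 of them with a gene on the opposite strand. The longest overlaps were 2266 bases of ITGB3 with AC068234.1 on the same strand, 1886 bases of ITGB7 with ZNF740 and 1641 bases of LAMA1 with AP002409.1, both on the opposite strand. No source used here says whether the libraries keep strand, so reads from these stretches cannot be told apart.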

How the data were processed

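Gene counts and FPKM of 18 libraries were used as the authors deposited them; 0 columns lacked a sample. Per the submitters' processing notes, the tools were fastp 0.19.6, STAR 2.4.0, HTSeq 0.12.4 and DESeq2, without their roles; no source used here gives the strand setting. The deposited table of LN229 differential genes holds the authors' mean normalized read count (a signal), log2 fold change and adjusted p-value. The integrin and laminin subunits, and the gene lists, were chosen with earlier results of these data known.

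Genes were filtered (filterByExpr) and scaled by TMM over 18 libraries, leaving 24418. Counts were fitted in R 4.3.3 with edgeR 4.0.16's robust quasi-likelihood test on the 15 libraries other than the U118-MG-labelled controls, and on all 18 for the guide contrast in U118-MG. P-values were Benjamini-Hochberg adjusted over all genes, with calls under 0.05. The SE is the size of the log2 fold change divided by the square root of F. Depth was 44.9 to 94.1 M counts per library; the floor of 3 counts covers counting error only. Coordinates of genes are from GENCODE 29 (GRCh38).

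Members that reached 1 CPM and changed at least 2-fold under either guide contrast or its difference, or were among the 3 largest changes between lines, were given by library. Of each list, up to 2 rises and 2 falls were named. Alternatives were DESeq2 1.42.0, its size factors, no filter, halved counts (57.4% to 63.7% of counts from 1 to 19 were even), other sets of libraries, the replicate number as a block, and leaving out each library. A fit without U118-MG sgCon 1 alone was added after seeing the data. The procedure was tested on simulated data. A few genes that the rule would name, 1 of them a member, are not reported here, though they stay in the fits and counts.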

Additional observations from a re-analysis of the deposited data

Results flagged for a closer look

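The response to the DDA1 guide differed between T98G and LN229 for 26 of the integrin and laminin subunits, 25 of which are given here, by edgeR's quasi-likelihood test of the difference itself, with an adjusted p under 0.05 over all genes. Values are T98G minus LN229 on the log2 scale. Among the integrin alpha subunits the differences were -1.21 for ITGA1, -0.85 for ITGA2, -1.15 for ITGA3, -0.77 for ITGA4, -1.71 for ITGA5 and -0.35 for ITGA6. They were -0.84 for ITGA7, -1.06 for ITGA8, -1.43 for ITGAD, -0.42 for ITGAV and -1.66 for ITGAX. Among the beta subunits ITGB1 had -0.37, ITGB2 -2.64, ITGB3 -1.55, ITGB4 0.99, ITGB5 -0.36 and ITGB8 1.81. The laminin alpha chains LAMA1, LAMA2, LAMA3, LAMA4 and LAMA5 had -2.04, -1.35, -0.61, -1.50 and 0.64. LAMB1 had -1.17, LAMB3 -1.65 and LAMC3 -3.16, where LAMC3 had at most 9 counts in a T98G library and ITGB2 stayed under 1 CPM in every group.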

How the results depend on the processing

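Members under 1 CPM in every group, ITGAL, ITGB2 and ITGB7 among them, were not checked gene by gene under the alternatives. Of 3366 values of the 34 other members, 3274 kept their direction and their side of the threshold. Of the rest 40 lost their call, 27 gained one, 24 changed direction without a call in either fit, and 1 changed direction with a call. That 1 was ITGAE in the guide contrast of U118-MG as labelled, which was -0.04 with all libraries, 0.24 without U118-MG sgCon 1 and between -0.19 and 0.24 over single libraries left out. The 2 members lower in LN229 became 1 with halved counts and 0 with all 18 libraries, and 1 to 2 with a library left out. With all 18 libraries the genes called fell from 10952 to 7125 in LN229, from 9354 to 5362 in T98G and from 8248 to 4190 for the difference; the cause was not tested. Leaving out single libraries gave 23 to 25 members higher in LN229, 9 to 10 higher and 14 to 16 lower in T98G, and 3 more positive and 23 to 24 more negative for the difference. Same-numbered libraries of a line correlated at -0.05 to 0.06 in their deviations from group means. No strong shared effect was seen, but such values cannot exclude that these libraries were grown or prepared together. With the replicate block 25 members were higher and 2 lower in LN229, 9 and 15 in T98G, and 3 and 23 for the difference, and 10704, 9174 and 8058 genes were called. Members under 1 CPM rest on few counts.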
